A study of Rattus norvegicus with 862 samples.

Results

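The messenger RNAs of 8 red cell genes were followed in rat heart tissue: Alas2, Ahsp, Hbb, Hba-a3, Slc4a1, Bpgm, Car2 and Tent5c. They are 8 of the 14217 genes that had a probe set of their own on the array, and each was read from its probe set of highest mean level. They were chosen by their differences between treated and control hearts on these same arrays. Differences, calls and p-values after compounds are therefore a description of the comparisons that chose them, and are used to support nothing.

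The hearts came from DrugMatrix, a toxicogenomics collection in which male Sprague-Dawley rats, 6 to 8 weeks old when bought, received 1 compound or its vehicle alone. The 862 arrays came from 840 rats, of which 611 received 1 of 88 compounds, 217 were vehicle controls with agreeing labels, and 12 were controls whose labels conflicted and which entered no comparison. A profile here is 1 compound at 1 dose in 1 vehicle and route, and each profile was compared at each duration with vehicle controls (dose 0) of the same vehicle, route, duration and RNA extraction campaign. Such controls existed for 95 of 97 profiles, which held 592 treated rats, mostly 3 per duration, with 3 to 28 control rats per profile. Many profiles lacked 1 or more of the durations of 1, 3 and 5 d. Of these treated rats 145 were of 1 d, 213 of 3 d and 228 of 5 d.

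The labels name no transgene, deletion or second agent in any group, and the vehicles were water, corn oil, carboxymethylcellulose (CMC), saline, acacia or, for 6 control rats, a mixture of CMC, SDS and povidone. Collection was in the afternoon for the 0.25 d and 1 d groups and in the morning for the 3 d and 5 d groups. Rinsing or perfusion of the hearts to clear blood was not given in the sources used. In such bulk tissue, fewer cells of a type and less RNA per cell cannot be told apart. Levels are on the log2 scale of the deposited values, which ran from 3.15 to 14.8 with array medians of 5.95 to 6.39. Levels of different probe sets were not set against each other. The mean over a list of heart muscle genes stood between 11.85 and 13.93 in all 840 rats. The mean over a liver list reached 10.83 (median 5.36) and that over an adipocyte list 9.68 (median 7.49). Heart muscle RNA was thus present throughout, but some samples also read high for genes of other tissues. Precision is limited by the number of arrays, and p-values measure the spread between the rats of a group.

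A maturing red cell fills itself with haemoglobin, and after losing its nucleus it passes into the blood as a reticulocyte, which still carries messenger RNA for a short time. Haem is built in the mitochondrion from a first step catalysed by Alas2, the erythroid form of aminolevulinate synthase, and is joined to alpha and beta globin chains. A piece of heart holds blood in its vessels and chambers beside its muscle cells.

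The sequence just before a transcript start given by the promoter table was printed for the 4 members that the table holds, Alas2, Hbb, Hba-a3 and Bpgm, because the results set the time courses of the haem enzyme, the globins and Bpgm side by side and because erythroid genes are classically read through GATA words and CACCC boxes near their starts. The sequences are those of RefSeq on the rat assembly GRCr8, written 5′ to 3′ on the strand of the gene and ending at the base before that start. Capitals mark a GATA word in Alas2 and a CACCC box, on either strand, in the other 3. The Alas2 window lies at chrX:22895200-22895449 on the plus strand, inside the annotated span of the gene, and that of Hbb at chr1:167663722-167663971 on the minus strand. The Hba-a3 window lies at chr10:15816944-15817193 on the minus strand and that of Bpgm at chr4:64107027-64107276 on the plus strand, which also begins inside the annotated span of its gene.
Alas2: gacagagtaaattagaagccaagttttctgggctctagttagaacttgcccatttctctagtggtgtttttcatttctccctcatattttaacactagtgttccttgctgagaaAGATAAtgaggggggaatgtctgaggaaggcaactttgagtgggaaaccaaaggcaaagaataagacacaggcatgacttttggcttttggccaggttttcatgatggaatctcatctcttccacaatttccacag
Hbb: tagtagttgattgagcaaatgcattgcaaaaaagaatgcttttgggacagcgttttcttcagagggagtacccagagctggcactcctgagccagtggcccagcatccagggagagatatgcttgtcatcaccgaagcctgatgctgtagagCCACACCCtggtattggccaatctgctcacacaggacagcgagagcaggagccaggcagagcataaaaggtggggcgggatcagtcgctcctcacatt
Hba-a3: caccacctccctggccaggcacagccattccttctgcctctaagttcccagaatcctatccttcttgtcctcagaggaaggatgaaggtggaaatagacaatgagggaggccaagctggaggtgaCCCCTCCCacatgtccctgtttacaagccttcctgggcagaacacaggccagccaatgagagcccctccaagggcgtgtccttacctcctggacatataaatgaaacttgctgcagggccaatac
Bpgm: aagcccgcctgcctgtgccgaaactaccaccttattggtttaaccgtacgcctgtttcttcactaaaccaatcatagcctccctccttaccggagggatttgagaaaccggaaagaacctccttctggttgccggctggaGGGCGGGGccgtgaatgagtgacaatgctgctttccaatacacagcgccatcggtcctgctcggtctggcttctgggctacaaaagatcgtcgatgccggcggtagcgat

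On both strands, the word AGATAA counted as a GATA word, as did TGATAA, and the forms with a last G, which are AGATAG on the one hand and TGATAG on the other. The CACCC box was CCNCNCCC on both strands. Positions count bases back from the start that the table uses. Alas2 held AGATAA at -136. Hbb held CCACACCC at -98 and Hba-a3 CCCCTCCC at -125, while Bpgm held GGGCGGGG, the box on the other strand, at -110. The word TATAAA, sought on the strand of the gene, stood at -30 in Hba-a3. The word CCAAT stood in Hbb at -81 and, as its reverse ATTGG, at -86. It also stood in Hba-a3 at -73 and -7 and in Bpgm at -76 and -183, with the reverse at -217. Among all 33469 promoter windows of the same length, 27.0% held a GATA word, 42.8% a CACCC box, 8.06% TATAAA and 34.0% CCAAT. A match is a description of the letters and not a binding site.

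In the 217 control hearts Alas2 had a mean level of 9.74 ± 0.62 (SD), with a lowest value of 6.91, a median of 9.74 and a highest of 12.06. Across the 611 treated hearts its lowest, median and highest values were 4.73, 9.12 and 12.86, and the SD over treated rats was larger than that of 99.9% of the genes. In 52 treated hearts, and in 0 control hearts, Alas2 lay below 5.95, the lowest median of any array. The Alas2 gene lies at chrX:22890650-22914046 of GRCr8.

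The globins are the protein chains of haemoglobin. Hbb, a beta globin at chr1:167662310-167663721, had a control mean of 13.64 ± 0.30 and ran from 6.80 to 14.40 in treated hearts. Hba-a3, an alpha globin at chr10:15816099-15816943, had a control mean of 12.16 ± 0.50 and ran from 7.44 to 14.14. The Hbb probe set is of a class that can bind related transcripts, and rat globin genes have near-identical copies, so each globin value may hold RNA of more than 1 copy. Ahsp, the chaperone that holds free alpha globin, lies at chr1:192310306-192315943 and had a control mean of 7.59 ± 0.57, with treated values from 5.23 to 10.59.

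Slc4a1, the anion exchanger band 3 of the red cell membrane, lies at chr10:87807010-87823274 and had a control mean of 7.53 ± 0.74 with treated values from 4.07 to 11.33. Bpgm, the mutase that makes the bisphosphoglycerate which loosens oxygen from haemoglobin, lies at chr4:64106809-64135749 and had a control mean of 9.62 ± 0.41 with treated values from 7.82 to 12.20. Car2, a carbonic anhydrase of the red cell and of other tissues, lies at chr2:88462883-88478012 and had a control mean of 8.73 ± 0.42 with treated values from 6.40 to 11.56. Tent5c, a poly(A) polymerase that lengthens the tails of messenger RNAs, lies at chr2:190541668-190563902 and had a control mean of 8.02 ± 0.66 with treated values from 5.19 to 11.35. The SD over treated rats of these 7 genes exceeded that of 95.9% to 99.9% of the genes.

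The lowest single hearts came from a different treatment for each member, and the highest from indomethacin or sulindac. The lowest single heart was from a vinblastine rat for Alas2, a vinorelbine rat for Hba-a3, a daunorubicin rat for Hbb, an epirubicin rat for Car2, a mitoxantrone rat for Bpgm, a cyclophosphamide rat for Slc4a1, a valproic acid rat for Ahsp and a cyclosporin A rat for Tent5c. The highest single heart was from an indomethacin rat at 3 d for Alas2, Bpgm and Car2, and from a sulindac rat at 5 d for Ahsp, Hbb, Hba-a3, Slc4a1 and Tent5c.

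Each profile was fitted with limma over all genes, and a gene was called where its Benjamini-Hochberg adjusted p was at most 0.01 and its change at least 1.5-fold. Of 760 pairs of a member and a profile, 141 were called lower and 1 higher, beside 0.344% lower and 0.357% higher over all pairs of genes and profiles. Since the same comparisons chose the members, nothing is read from this excess. Lower calls were found in 30 of the 95 profiles, with 4 or more members in 19 profiles and all 8 in 7. Leaving out replicate 1, 2 or 3 of every group lowered the 19 profiles to 12 each time, and controls of the same study code alone, which 35 profiles had, gave 22 lower pairs where all matched controls gave 51. The median change over all member pairs was -0.35 on the log2 scale, against -0.00 over all genes. All 8 members lay below 0 in 59 profiles and above 0 in 5. The plot of all profiles shows that the low side holds a long tail and that the high side is short.

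**Figure D1:**
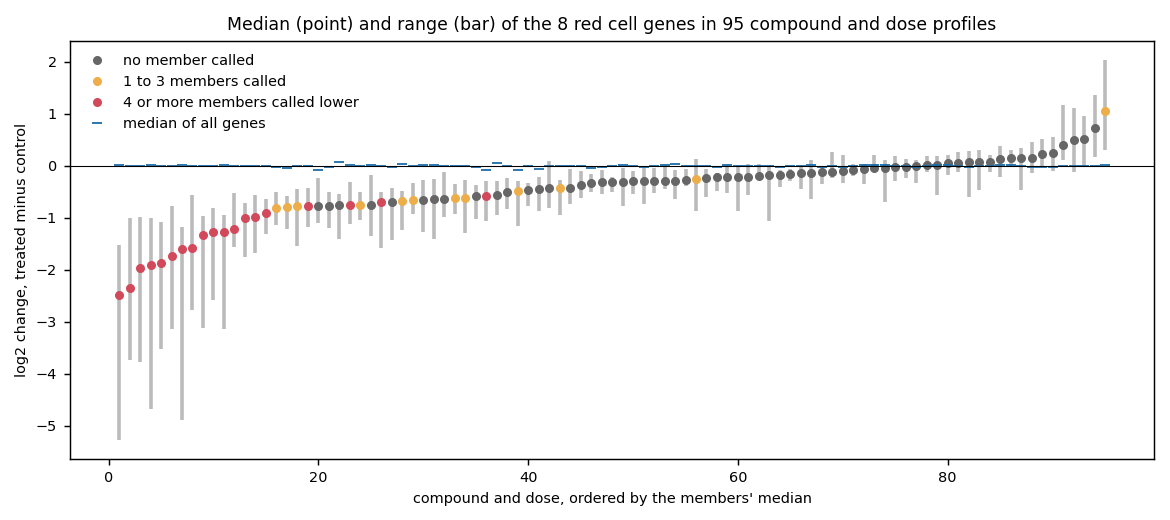
Log2 change of the 8 members against matched controls in each of the 95 profiles, ordered by the median of the members. Points are the median and bars the range over the 8 members, the dash is the median of all genes, and colour gives the members called (grey 0, yellow 1 to 3 in either direction, red 4 or more lower). The 19 profiles with 4 or more members called lower lie toward the low end, and 64 profiles have 0 calls.

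Alas2 was called lower in 23 of 95 profiles, more than any other gene of the 14217. Hba-a3 and Tent5c were called lower in 20, Ahsp in 18, Car2 in 16, Slc4a1 and Bpgm in 15 and Hbb in 14. Slc4a1 was also the member called higher, in 1 profile. By rat, 308 of the 592 treated hearts (52.0%) had an Alas2 level below the lowest of their own matched controls, and 62 (10.5%) were above the highest. For the other members the share below the lowest control ran from 39.5% for Slc4a1 to 45.8% for Hba-a3. The share above the highest ran from 6.08% for Bpgm to 9.80% for Hbb and Slc4a1. These shares were taken for the members alone, so they have no background over all genes. They also depend on the number of matched controls, since a heart falls outside a small group more easily. Nothing is read from their size. For Alas2 the treated hearts below all matched controls numbered 47 of 145 at 1 d, 116 of 213 at 3 d and 140 of 228 at 5 d. All 8 members had a higher share at 3 d than at 1 d. The durations did not hold the same compounds, with 5 cytotoxic profiles at 1 d and 10 at 3 d and at 5 d. These pooled shares are therefore not a time course. Between 3 d and 5 d the share was lower for Bpgm, with 109 and then 97 hearts, and for Slc4a1, with 95 and 95.

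Haem synthesis is taken first. Ifosfamide, a nitrogen mustard that crosslinks DNA, was given at 143 mg/kg in saline by gavage. At 3 d Alas2 stood at 4.93, 4.93 and 4.94 in the treated rats and at 9.20, 10.15 and 11.24 in the controls. At 5 d it stood at 4.94, 5.09 and 5.16 against 9.61, 10.53 and 10.86. No treated rat overlapped a control, and the change over both durations was -5.27 ± 0.27 (SE, 6 treated and 6 control rats), with treated levels under the lowest array median of 5.95, where a further decrease may not be visible.

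Cyclophosphamide, a nitrogen mustard of the same family, was given at 25 mg/kg in water by gavage. At 3 d Alas2 stood at 5.55, 5.82 and 6.35 against a control range of 9.64 to 10.08 with a median of 9.81 (n = 9). At 5 d the treated values of 5.12, 6.03 and 6.5 lay below controls of 8.96 to 9.83 with a median of 9.52 (n = 10). The groups did not overlap at either time, and the change was -3.73 ± 0.15.

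The vinca alkaloids vinorelbine (1.5 mg/kg) and vinblastine (0.3 mg/kg), which bind tubulin and stop dividing cells, were given in saline into a vein. Vinorelbine left Alas2 at 4.94, 5.16 and 5.59 at 3 d and at 4.92, 4.98 and 5.07 at 5 d. After vinblastine it was 4.98, 5.01 and 5.19 at 3 d and 4.73, 4.87 and 4.96 at 5 d. The shared saline controls ran from 9.52 to 10.50 with a median of 9.72 at 3 d (n = 8) and from 8.76 to 9.90 with a median of 9.34 at 5 d (n = 8). Every treated heart of both drugs lay below every control, with changes of -4.47 ± 0.15 for vinorelbine and -4.62 ± 0.14 for vinblastine. The doses of the 2 drugs differ, and no comparison between them was made.

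The same control rats served the anthracyclines epirubicin (2.7 mg/kg), doxorubicin (3 mg/kg), idarubicin (0.625 mg/kg) and daunorubicin (3.25 mg/kg) and the related mitoxantrone (2 mg/kg), all of which act on topoisomerase II. At 1 d the 6 controls ran from 9.38 to 10.52 with a median of 10.11. Epirubicin gave Alas2 levels of 7.30, 7.68 and 8.41 at 1 d, then 5.15, 5.24 and 5.27 at 3 d and 4.90, 4.93 and 5.04 at 5 d. Epirubicin hearts were thus below all controls from the first day on.
After mitoxantrone Alas2 was 8.53, 8.64 and 8.92 at 1 d, 4.87, 4.98 and 5.17 at 3 d, and 4.90, 5.10 and 5.26 at 5 d. Doxorubicin hearts had 8.82, 9.33 and 9.86 at 1 d, where 1 of 3 overlapped the controls, then 5.25, 5.6 and 5.73 at 3 d and 4.90, 5.07 and 5.24 at 5 d. Idarubicin hearts had 7.90, 9.52 and 9.62 at 1 d, 6.53, 6.95 and 8.47 at 3 d, and 4.96, 5.17 and 5.43 at 5 d. Among these drugs the 3 d values after idarubicin were the highest and the most widely spread. Daunorubicin hearts had 8.92, 9.16 and 9.36 at 1 d, 5.39, 5.40 and 5.80 at 3 d, and 5.05, 5.28 and 5.41 at 5 d.

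Valproic acid, an anticonvulsant that also inhibits histone deacetylases, was given at 1500 mg/kg in water and shared its controls with cyclophosphamide. It left Alas2 at 6.08, 6.55 and 7.37 at 3 d and at 5.15, 6.83 and 7.06 at 5 d, below all controls at both times. Cyclosporin A, a calcineurin inhibitor, was given at 350 mg/kg in corn oil. Alas2 was 7.72, 8.20 and 8.42 at 3 d against 9.03 to 9.79 in 8 controls with a median of 9.63, and 5.23, 5.26 and 6.37 at 5 d against 8.89 to 10.80 in 11 controls with a median of 9.46. The groups did not overlap at either time, and the 5 d hearts lay lower than the 3 d hearts.

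Haemoglobin chains come next. In the saline controls of the vein route, Hbb ran from 13.54 to 13.89 at 1 d with a median of 13.79, from 13.48 to 13.99 at 3 d with a median of 13.69, and from 13.15 to 13.70 at 5 d with a median of 13.55. Mitoxantrone hearts had Hbb levels of 13.33, 13.41 and 13.50 at 1 d, 8.97, 9.46 and 9.50 at 3 d, and 7.58, 7.99 and 8.20 at 5 d. Epirubicin hearts had 12.87, 13.10 and 13.20 at 1 d, 10.44, 10.48 and 10.92 at 3 d, and 7.39, 7.47 and 7.90 at 5 d. The 1 d values sat just under the controls, while those of 5 d lay more than 5 log2 units under the control median.
After doxorubicin Hbb was 13.23, 13.61 and 13.95 at 1 d, 10.87, 11.01 and 11.65 at 3 d, and 7.93, 7.96 and 8.02 at 5 d. After daunorubicin it was 13.47, 13.50 and 13.59 at 1 d, 11.22, 11.48 and 11.53 at 3 d, and 6.80, 7.39 and 8.18 at 5 d. Idarubicin left 12.93, 13.61 and 13.73 at 1 d, 12.21, 12.78 and 13.21 at 3 d, and 8.05, 8.38 and 8.64 at 5 d. At 1 d hearts of all 3 drugs overlapped the controls, and at 3 d and 5 d none did.

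The vinca alkaloids, ifosfamide and cyclophosphamide showed Hbb low at both of their durations. Vinorelbine hearts stood at 9.00, 10.28 and 10.70 at 3 d and at 7.66, 7.82 and 8.00 at 5 d, and vinblastine hearts at 9.13, 9.72 and 9.79 and then at 7.43, 7.76 and 8.30. Ifosfamide hearts stood at 9.27, 9.33 and 10.16 at 3 d against controls of 13.33, 13.83 and 14.13, and at 7.62, 8.32 and 8.97 at 5 d against 13.76, 13.96 and 14.00. Cyclophosphamide hearts stood at 10.05, 10.84 and 11.49 at 3 d and at 7.87, 11.10 and 11.27 at 5 d. In the cyclophosphamide group at 5 d, 1 heart lay more than 3 log2 units below the other 2, and all 3 were under the control range of 13.24 to 13.79 (n = 10).

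Hba-a3, the alpha globin, had saline vein controls of 12.14 to 12.75 at 1 d (median 12.42), 11.79 to 12.74 at 3 d (median 12.20) and 11.38 to 12.35 at 5 d (median 11.96). Epirubicin hearts had 11.43, 11.53 and 11.65, then 9.20, 9.29 and 9.63, then 7.90, 8.14 and 8.43 at those times. Idarubicin hearts had 10.73, 11.92 and 12.55 at 1 d, 10.57, 10.97 and 12.03 at 3 d and 7.86, 8.32 and 8.80 at 5 d. Idarubicin hearts overlapped the controls at 1 d and 3 d, and epirubicin hearts at no time. Ifosfamide left Hba-a3 at 8.65, 8.91 and 8.98 at 3 d and at 8.12, 8.16 and 8.19 at 5 d, below controls of 11.35 to 13.33 and 12.53 to 12.81 (n = 3 each). Its change of -4.04 ± 0.27 was the largest for Hba-a3, and the change of -4.90 ± 0.19 after vinblastine the largest for Hbb.

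Ahsp changed less on the log2 scale. Cyclophosphamide hearts had Ahsp at 6.38, 6.55 and 6.62 at 3 d against 6.90 to 8.82 in 9 controls (median 7.76), and at 5.95, 6.23 and 6.70 at 5 d against 6.74 to 7.96 in 10 controls (median 7.57). All lay below the controls, by a narrow margin, with a change of -1.19 ± 0.20. Ifosfamide hearts had 5.79, 6.06 and 6.73 at 3 d against controls of 7.72, 7.74 and 8.85, and 5.44, 6.41 and 6.80 at 5 d against 6.31, 7.07 and 8.68. At 5 d 1 of the 3 ifosfamide hearts lay below all controls. The change of -1.52 ± 0.38 after ifosfamide was the largest for Ahsp and did not meet the call.

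Slc4a1 comes next, and the lower end of its control range changed with duration. Its saline vein controls ran from 7.82 to 8.31 at 1 d (median 7.98), from 7.10 to 8.78 at 3 d (median 7.74) and from 6.00 to 8.30 at 5 d (median 7.49). Epirubicin hearts were already at 5.33, 5.51 and 5.66 at 1 d, then at 5.10, 5.19 and 5.34 and at 5.00, 5.08 and 5.27. Mitoxantrone hearts were at 5.52, 5.73 and 5.82 at 1 d, then at 4.89, 4.91 and 7.36 and at 4.96, 6.38 and 6.91. Epirubicin hearts stayed below all controls throughout, whereas 2 of the 3 mitoxantrone hearts were inside the control range at 5 d. The lower end of that range, 6.00, came from 1 rat, and the next control stood at 6.84.
Daunorubicin hearts stood at 7.39, 7.48 and 7.64 at 1 d, at 5.17, 5.48 and 6.95 at 3 d and at 5.22, 7.34 and 7.37 at 5 d. Idarubicin hearts stood at 5.44, 6.73 and 7.43, at 5.45, 6.81 and 7.36, and at 6.88, 6.88 and 7.31. All idarubicin hearts lay inside the control range at 5 d for Slc4a1, although all lay under it for Alas2 and both globins. The largest change of Slc4a1 was -2.48 ± 0.29 after cyclophosphamide, where it stood at 4.13, 4.68 and 6.74 at 3 d and at 4.07, 5.33 and 5.36 at 5 d.

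The enzymes Bpgm and Car2 had smaller changes with tighter spread. After mitoxantrone Bpgm stood at 8.84, 8.92 and 9.02 at 1 d, 7.82, 7.93 and 7.97 at 3 d and 8.28, 8.41 and 8.67 at 5 d. Its controls ran from 9.04 to 10.15 (median 9.94), from 9.49 to 10.13 (median 9.65) and from 8.95 to 9.73 (median 9.46) at those times. No mitoxantrone heart overlapped them, and the change was -1.2 ± 0.12. For Car2, epirubicin hearts had 7.60, 7.78 and 8.05, then 7.02, 7.16 and 7.16, then 6.40, 6.94 and 7.37. The Car2 controls ran from 8.23 to 9.22 (median 8.94), from 8.47 to 9.36 (median 8.78) and from 7.99 to 8.74 (median 8.52). Again no heart overlapped, and the change was -1.45 ± 0.12. Ifosfamide gave the largest change of both enzymes, -1.55 ± 0.22 for Bpgm and -1.62 ± 0.20 for Car2.

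Tent5c had a median change of -0.52 over the 95 profiles. Cyclophosphamide hearts had 5.41, 5.54 and 5.56 at 3 d against 7.63 to 8.54 in the controls (median 8.22), and 5.36, 5.82 and 6.32 at 5 d against 6.92 to 8.12 (median 7.81). The change was -2.20 ± 0.17 with no overlap. Mitoxantrone hearts had 6.65, 6.72 and 7.36 at 1 d, 5.57, 5.80 and 5.97 at 3 d and 5.47, 5.83 and 6.15 at 5 d, against controls of 7.14 to 8.81, 7.75 to 8.90 and 7.18 to 8.25. At 1 d 1 mitoxantrone heart lay inside the control range, and later none did. Tent5c was also the member called after chlorambucil, a slower acting mustard given at 4.5 mg/kg, with 5.67, 5.76 and 6.41 at 5 d against 7.17 to 9.05 in 11 controls (median 7.95).

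**Figure D2:**
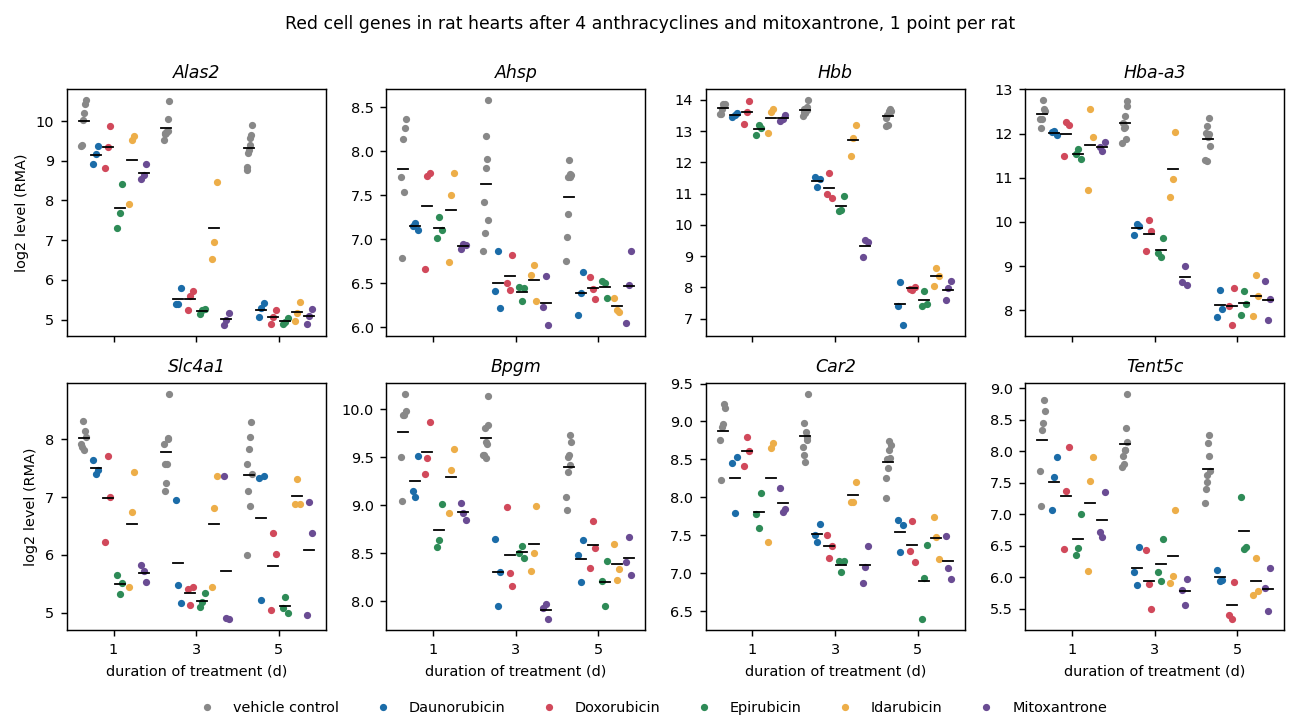
Log2 level of each member (1 panel per gene) in single hearts at 1, 3 and 5 d, for the shared saline controls of the vein route (grey) and for epirubicin, mitoxantrone, doxorubicin, idarubicin and daunorubicin. Each point is 1 rat and the bar is the mean of its group. By median change, Hbb and Hba-a3 lie further below the controls at each later duration, and Alas2 is about as low at 3 d as at 5 d. Slc4a1 is low at 1 d and partly inside the control range at 5 d. The Slc4a1 control range begins at 7.82 at 1 d and at 6.00 at 5 d.

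The plot of the anthracyclines and mitoxantrone sets the time courses side by side, with 15 treated hearts at each duration. Hearts below all matched controls were counted for the members alone, so these counts have no background over all genes. Alas2 had a median change of -0.98 at 1 d, -4.30 at 3 d and -4.24 at 5 d, with 12, 15 and 15 of 15 hearts below all matched controls. Hbb had -0.31, -2.52 and -5.56, with 10, 15 and 15 hearts below. Hba-a3 had -0.70, -2.52 and -3.72, with 12, 14 and 15. The medians of both globins were lower at 5 d than at 3 d, and that of Alas2 was not. Alas2 stood under the lowest array median of 5.95 in all but the idarubicin hearts at 3 d, where a further decrease may not be visible, and in idarubicin hearts it was lower at 5 d than at 3 d. Slc4a1 had -1.48, -2.05 and -1.30, and the hearts below all controls numbered 15, 13 and 6. The enzymes were lowest at 3 d, with medians of -0.51, -1.22 and -0.96 for Bpgm and -0.62, -1.45 and -1.09 for Car2. Ahsp had -0.65, -1.13 and -1.04, with 2, 15 and 14 hearts below, and Tent5c -0.99, -1.96 and -1.78, with 8, 15 and 14. Slc4a1 had the most hearts below the controls at 1 d and the fewest at 5 d. Its lowest control stood at 7.82 at 1 d (n = 6) and at 6.00 at 5 d (n = 8), so these counts rest on different limits. For none of these drugs did its change meet the threshold for a difference between durations (limma).

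The change after a compound was also fitted separately for each duration and its difference between durations taken as a term of the same limma fit. Of 176 pairs of a member and a named profile with 2 or more durations, in 22 profiles, 18 had an adjusted p of at most 0.01, all of them Alas2, Hbb or Hba-a3 in 6 profiles, beside 0.0777% of all pairs of genes and these profiles. The 6 profiles and their background shares were epirubicin (0.767%), mitoxantrone (0.0281%), doxorubicin (0.0563%), cyclosporin A at 350 mg/kg (0.0492%), idarubicin (0.0211%) and daunorubicin (0.0281%). These counts rest on the contrasts that chose the members, and 5 of the 6 profiles share their control rats.

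**Figure D3:**
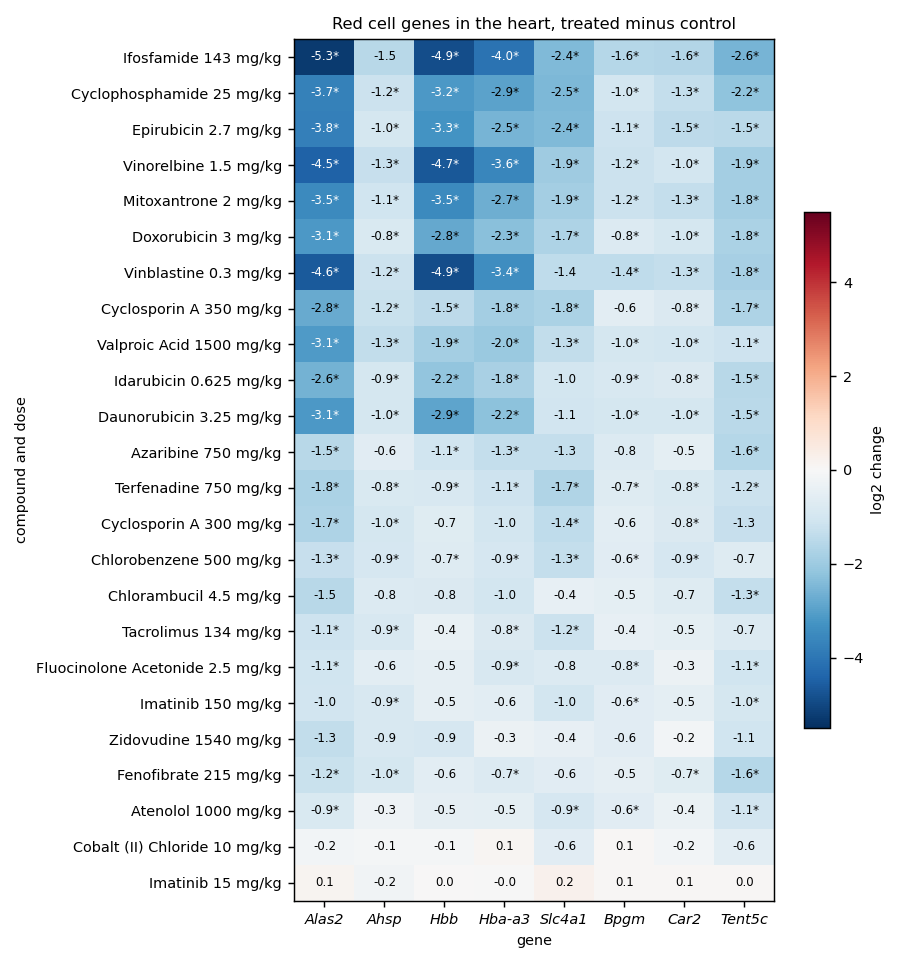
Log2 change against matched controls of the 8 members (columns) in the 24 named profiles (rows), with blue for lower and red for higher, and an asterisk where the call was met. Ifosfamide stands at -5.27 for Alas2, and imatinib at 15 mg/kg and cobalt chloride stand near 0.

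The named profiles are those of the heat map. All 8 members were called lower after cyclophosphamide, beside 0.267% of all genes, after epirubicin, beside 1.17%, and after vinorelbine, where 14 of the 14217 genes (0.0985%) were called lower and the 8 members were among them. The same held for mitoxantrone (0.521% of genes), doxorubicin (0.682%), valproic acid (0.703%) and terfenadine, an antihistamine given at 750 mg/kg (0.978%). In each of these profiles the member changes were chosen on the same contrast, and nothing is read from the counts. In 6 profiles 7 members were called lower. They were ifosfamide (0.352% of genes) without Ahsp, vinblastine (0.317%), idarubicin (0.155%) and daunorubicin (0.239%) without Slc4a1, cyclosporin A at 350 mg/kg (0.865%) without Bpgm, and the solvent chlorobenzene at 500 mg/kg (1.41%) without Tent5c. Thus Slc4a1 was the missing member in 3 of the 6.

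Fewer members were called in the remaining named profiles. Fenofibrate, a fibrate given at 215 mg/kg, had 5 members lower beside 0.591% of genes. Azaribine, a blocker of pyrimidine synthesis given at 750 mg/kg, had 4 members lower, Alas2, Hbb, Hba-a3 and Tent5c, out of 5 genes called lower in all (0.0352%). Azaribine hearts had Alas2 at 7.60, 7.72 and 8.36 at 3 d against 9.27 to 10.78 in 6 controls (median 9.60), and Hbb at 12.31, 12.56 and 12.83 against 13.43 to 14.17 (median 13.73), with no overlap in either. Profiles with 4 members lower also included cyclosporin A at 300 mg/kg (0.478%), the calcineurin inhibitor tacrolimus at 134 mg/kg (0.802%), the glucocorticoid fluocinolone acetonide at 2.5 mg/kg (3.28%) and the beta blocker atenolol at 1000 mg/kg (2.4%). Imatinib, a kinase inhibitor, at 150 mg/kg had 3 (0.190%), namely Ahsp, Bpgm and Tent5c, and chlorambucil had 1 (0.0703%).

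In 3 named profiles no member met the call in limma or in the methods' t-test. After zidovudine, a nucleoside analogue given at 1540 mg/kg for 5 d, Alas2 stood at 7.81, 8.42 and 8.53, below all 11 controls, with a change of -1.35 on 3 treated rats, and 0% of genes were called lower. At an unadjusted p under 0.05 limma had 5 of its 8 members and 5.32% of all genes. Cobalt chloride, an agent known to mimic hypoxia, was given at 10 mg/kg, and 0.0492% of genes were called lower. Cobalt hearts had Alas2 at 9.10, 9.32 and 10.52 against controls of 9.44, 9.62 and 10.39, so that 2 treated hearts stood below the control range and 1 above it, and 0 of 8 members and 11.3% of genes had an unadjusted p under 0.05. Imatinib at 15 mg/kg had 0% of genes called lower and an Alas2 change of 0.15, with 0 of 8 members and 2.62% of genes under an unadjusted 0.05.

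The calcineurin inhibitor cyclosporin A was also given at 300 mg/kg in acacia. Alas2 stood at 9.37, 9.78 and 10.46 at 1 d, 7.42, 8.15 and 8.44 at 3 d and 6.04, 6.93 and 7.56 at 5 d, each with 3 rats, against control medians of 10.70, 10.11 and 9.42 (n = 3 each). The change over durations was -1.68 ± 0.33. Chlorobenzene gave 9.14, 9.83 and 9.85, then 7.84, 7.97 and 8.85, then 6.77, 7.70 and 8.03, against control medians of 9.85, 9.89 and 9.48, and a change of -1.28 ± 0.21. Chlorambucil hearts had Alas2 at 8.86, 9.16 and 9.49 at 3 d and at 5.67, 7.25 and 8.17 at 5 d. In all 3 the median of the treated hearts was lowest at 5 d, and no member met the threshold for a difference between durations (smallest adjusted p 0.601, 0.0221 and 0.0424 in the order given, limma). Over all genes 0%, 0.563% and 0.0774% met it, in the same order.

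A few profiles were picked after their values were seen. Indomethacin, an inhibitor of cyclooxygenase given at 9.6 mg/kg, had the single higher call, Slc4a1 at 2.04 ± 0.35, beside 0.211% of genes called higher. This call was lost by the methods' t-test, without the arrays that stand apart from the rest in either definition, and with controls of the own study code. Its Slc4a1 levels were 8.94, 9.74 and 10.95 at 3 d against 7.15 to 8.87 in 9 controls (median 7.82), and 7.72 and 10.88 at 5 d against 5.91 to 7.97 in 10 controls. All 3 hearts at 3 d lay above the controls, and at 5 d 1 of 2 did. Alas2 in the same rats stood at 9.47, 11.41 and 12.86 at 3 d against 9.64 to 10.08, and at 9.12 and 12.33 at 5 d against 8.96 to 9.83. At each time 1 heart was within or under the control range and the others stood above it. Sulindac, another inhibitor of cyclooxygenase, at 132 mg/kg had Alas2 levels of 9.86 and 12.82 at 5 d against 8.89 to 10.80 in 11 controls, so that 1 heart of 2 stood above them.

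In campaign 1 the comparisons of drugs given by implanted pump at 3 d rest on 2 control hearts with low values. Alas2 stood at 6.91 and 7.81 in those 2 controls and at 8.85 and 8.94 in the 2 pump controls of 5 d. The 3 pump controls of 3 d in campaign 4 stood at 7.81, 8.70 and 9.17. Angiotensin II hearts (0.72 mg/kg) had 9.64, 9.97 and 10.06 at 3 d, and phenylephrine hearts (0.44 mg/kg) had 8.50, 9.16 and 9.34. Isoprenaline hearts (4.2 mg/kg) had 8.10, 8.81 and 9.91, and all 9 hearts of these 3 profiles of campaign 1 lay above their 2 controls at 3 d. At 5 d angiotensin II hearts had 8.59, 8.88 and 9.24, which overlapped the controls.

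Dose could be compared in 3 pairs of profiles of 1 compound, which share vehicle, route, duration and campaign, with limma over all genes. These treated hearts also entered the comparisons with controls that chose the members, so the values and calls are a description and no independent test. In rats given imatinib, Alas2 was lower at 150 than at 15 mg/kg by -1.19 ± 0.18 on the log2 scale (95% interval -1.56 to -0.82, 9 rats each). The hearts ran from 7.90 to 9.69 at the higher dose and from 9.44 to 10.71 at the lower one, overlapping slightly, and the means were 8.80 and 9.99. By duration the higher dose gave 8.79, 9.61 and 9.69 at 1 d, 8.36, 8.60 and 9.12 at 3 d and 7.90, 7.95 and 9.19 at 5 d. The lower dose gave 9.88, 10.66 and 10.71, then 9.82, 9.96 and 10.10, then 9.44, 9.47 and 9.86. Within each duration every heart of the higher dose lay below every heart of the lower dose.

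Tent5c differed between the imatinib doses by -1.01, from 6.73 to 7.85 at the higher dose and from 7.89 to 8.93 at the lower, with no overlap. Ahsp (-0.70), Bpgm (-0.70) and Car2 (-0.61) also met the call. With Alas2 and Tent5c these made 5 of the 8 members, beside 0.127% of genes called lower. Slc4a1 (-1.25), Hbb (-0.51) and Hba-a3 (-0.55) did not. The median over the members was -0.70 and over all genes -0.01. The calls rest on all 3 rats per duration: without replicate 1, 2 or 3 of each group 0, 0 and 1 members were called, while the Alas2 difference stayed between -1.22 and -1.15.

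Celecoxib, a selective inhibitor of cyclooxygenase 2, was given for 5 d at 400 and 35 mg/kg to 3 rats each. Alas2 was 1.15 higher at the higher dose (95% interval 0.69 to 1.61), with hearts from 10.31 to 10.82 against 9.00 to 9.72, and Slc4a1 was 1.72 higher (1.14 to 2.30), with 8.60 to 9.31 against 6.67 to 7.62. The groups did not overlap for either gene. No member was called in limma, and 7 of 8 had an unadjusted p under 0.05, as did 20.7% of all genes, of which 0% were called higher. For valsartan, a blocker of the angiotensin receptor, given for 1 d at 1000 mg/kg to 2 rats and at 30 mg/kg to 3, Alas2 differed by -0.05 (95% interval -0.85 to 0.76). No member was called by limma, 0% of genes were called, and 0 of 8 members and 1.30% of genes had an unadjusted p under 0.05.

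Control hearts, which had received no compound, were also compared with each other. The comparisons that chose the members did not set control against control. The same control arrays entered them, however, so these tests are not fully independent of the choice. In 200 control rats, compared within vehicle, route and campaign, Alas2 averaged 9.99 ± 0.56 (SD) at 1 d (n = 52), 9.71 ± 0.67 at 3 d (n = 72) and 9.50 ± 0.52 at 5 d (n = 76). Between 5 d and 1 d the difference was -0.54 ± 0.10 (SE, adjusted p 3.7e-05, limma). The other members were lower as well, with Hbb at -0.25 (adjusted p 0.000133), Car2 at -0.35 (0.000149), Hba-a3 at -0.40 (0.000238), Tent5c at -0.51 (0.000445), Slc4a1 at -0.57 (0.000596), Bpgm at -0.32 (0.000773) and Ahsp at -0.38 (0.00252). All 8 thus had an adjusted p of at most 0.01, as did 2.38% of all genes, but none reached 1.5-fold, so that 0 members were called beside 0.0985% of genes called lower. The median of the members was -0.39 against -0.01 for all genes. Time of day of collection changed together with duration between 1 d and the later groups, and the 2 cannot be told apart.

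Between 3 d and 1 d, which also differ in time of day, the members differed by a median of -0.25. None passed in limma, with adjusted p from 0.0849 to 0.508, while 8 of 8 had an unadjusted p under 0.05, as did 7.81% of all genes, and 0.0422% of genes were called lower. Between 5 d and 3 d, both taken in the morning, the median was -0.15. Again none passed (adjusted p from 0.147 to 0.356, limma), with 6 of 8 members and 17.6% of genes under an unadjusted 0.05 and 0% of genes called lower.

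**Figure D4:**
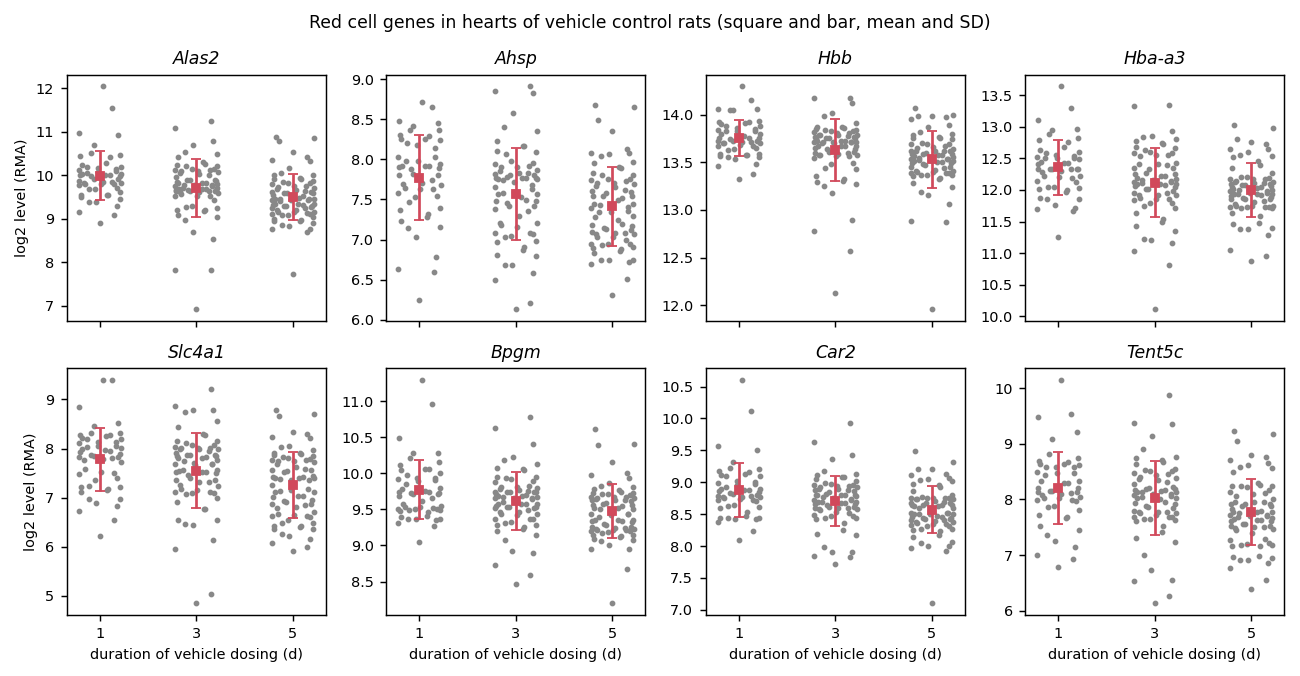
Log2 level of each member in the 200 control hearts of the duration comparison at 1, 3 and 5 d (52, 72 and 76 rats). Points are single rats, and the square and bar are the mean and SD. The groups overlap widely, and every member has its highest mean at 1 d and its lowest at 5 d.

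Vehicle was compared in 81 gavage control rats of 1 campaign given water (n = 28), corn oil (n = 26) or CMC (n = 27). No member was called by limma in any of the 3 pairs, and 0 of 8 had an unadjusted p under 0.05. Over all genes 9.93% had an unadjusted p under 0.05 for corn oil against water, 3.95% for CMC against water and 15.4% for corn oil against CMC, with 0%, 0% and 0% called. The largest member difference was 0.18 in size. No difference between vehicles was detectable for the members in these rats.

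Members were then compared across control hearts, whose arrays also entered the comparisons that chose the members. Levels of the 217 control rats were centred within each group of the same vehicle, route, duration and campaign, and 7 relations of Alas2 with the other members were computed. Pearson's r was 0.92 with Bpgm, 0.91 with Tent5c, 0.87 with Hbb, 0.85 with Car2, 0.81 with Hba-a3, 0.71 with Ahsp and 0.62 with Slc4a1. Spearman's rho for the same genes was 0.88, 0.89, 0.87, 0.80, 0.73, 0.70 and 0.58. The permutation p was 1e-05 for each, raw and after Benjamini-Hochberg adjustment, which is the smallest that 100000 permutations can give. Without the 2 hearts farthest from the median of Alas2, r ran from 0.60 to 0.91 over the 7 genes. The plot of Alas2 against the other members shows the tightest cloud for Bpgm and the widest for Slc4a1.

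**Figure D5:**
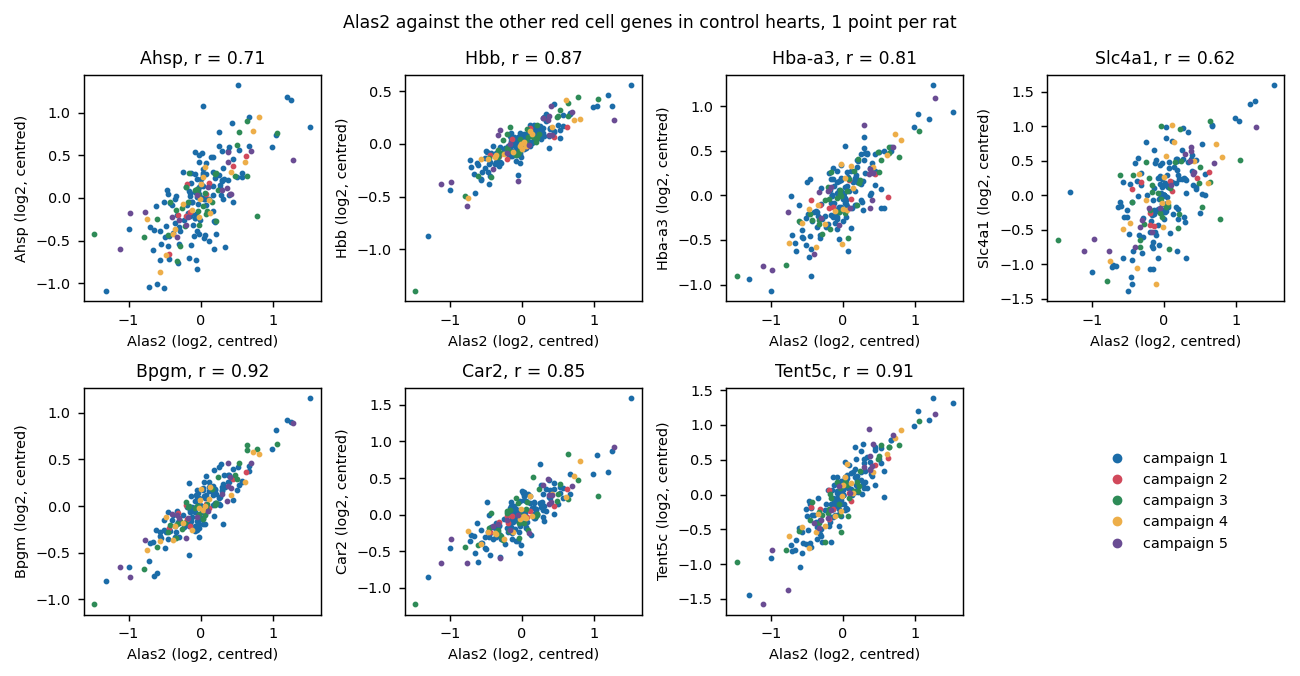
Centred log2 level of Alas2 (horizontal) against that of each of the other 7 members (vertical) in 217 control hearts, coloured by RNA extraction campaign. Each point is 1 rat and r is given above each panel. Bpgm (0.92) and Tent5c (0.91) lie closest to a line and Slc4a1 (0.62) the least.

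Within each of the 5 campaigns r was above 0 for all 7 genes. In the smallest, of 9 control rats, Hbb had an r of 0.81 (adjusted p 0.0114), Slc4a1 0.53 (0.144) and Hba-a3 0.52 (0.144) by exact permutation, while Car2, Bpgm, Ahsp and Tent5c ran from 0.88 to 0.94. In the campaign of 34 rats Slc4a1 had an r of 0.43 (adjusted permutation p 0.0117). The lowest r of any pair of members was 0.51, between Hbb and Slc4a1.

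Ranked over all 14217 genes by r with Alas2 in these hearts, Bpgm stood at 1, Tent5c at 2, Hbb at 3, Car2 at 5, Hba-a3 at 6, Ahsp at 13 and Slc4a1 at 23, and the median r of all genes was 0.0536. These r values describe 217 hearts with 1 array each, and all genes of a heart were read from the same array and RNA preparation. Outside the members, the genes most like Alas2 were Cdc25b (0.86), a phosphatase that admits cells to mitosis, Alox15 (0.77), a lipoxygenase, Cd52 (0.75), a small surface glycoprotein of white cells, Ybx3 (0.74), Ube2o (0.73), a ubiquitin ligase that clears proteins from reticulocytes, Hemgn (0.73), a nuclear protein of erythroid cells, and Emb (0.73). Bnip3l, which removes mitochondria from reticulocytes, had 0.71, Npy 0.68 and Nfe2 0.67. In the 24 named profiles Cdc25b was called lower in 13, Alox15 in 12, Cd52 in 10 and Emb in 10. Hemgn was called lower in 5, Ybx3 in 3, and Ube2o, Bnip3l, Npy and Nfe2 in 0.

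Other genes of the red cell were taken from lists of globins, membrane and skeleton, haem synthesis and iron, transcription factors and maturation, of which 58 were measured. In the 24 named profiles 28 of 1392 pairs (2.01%) were called lower and 2 higher (0.144%), beside 0.652% lower and 0.601% higher over all genes. In the 10 cytotoxic profiles 13 of 580 (2.24%) were lower and 0 higher, beside 0.387% and 0.531%. The members had 127 of 192 and 69 of 80 lower in the same profiles, which is fixed by how they were chosen.

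Few of these genes met the call. Tfrc, the transferrin receptor that brings iron into the cell, was called lower in 9 named profiles with a median change of -0.62 and a range of -2.27 to 1.15. Alas1, the form of aminolevulinate synthase that all tissues use, was lower in 7 with a median of -0.16. Rhd, a membrane protein of the red cell, was lower in 6 with a median of -0.49. Hemgn was lower in 5 with a median of -0.53. Tfrc, Alas1, Rhd and Hemgn together with Lmo2 (1 profile) account for all 28 lower calls. The 2 higher calls were Slc2a1, a glucose transporter, and Epb41, a protein of the membrane skeleton, in 1 profile each.

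Median changes of genes of the erythroid programme were taken over the named profiles. The transcription factors Gata1 (median change -0.04), Klf1 (-0.24), Nfe2 (-0.25) and Tal1 (-0.12), and Epor, the erythropoietin receptor (-0.00), met the call in no named profile. Control means were 4.49 for Gata1 and 4.50 for Nfe2, under the lowest array median of 5.95, and 6.07 for Klf1 and 6.20 for Epor. At such levels a decrease may not be visible. Tal1 had a control mean of 7.62. The globins of the embryo type Hbz, Hbe1, Hbe2 and Hbg1 had medians of -0.12 each and met it in none either. The mean over these globins was low on the array, from 4.47 to 4.86 after epirubicin and from 4.57 to 5.08 in its controls. After ifosfamide the mean over the transcription factor list ran from 5.78 to 5.92 in treated hearts and from 5.96 to 6.28 in controls, with no overlap, and after epirubicin the median change over that list was -0.30. Among the maturation genes Bnip3l had -0.26 and Car1, at a low control mean of 4.30, had -0.08. In the haem path Fech, which inserts the iron, had -0.15 and Cpox 0.17.

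Markers of other cells were counted beside these results. Over all genes, 0.387% of pairs were called lower and 0.531% higher in the 10 cytotoxic profiles. In the 10 cytotoxic profiles platelet genes were called lower in 0 of 100 pairs, B cell genes in 6 of 60, T and NK cell genes in 5 of 140 and neutrophil genes in 4 of 80. Macrophage genes were lower in 2 and higher in 9 of 100 pairs. Endothelial genes were lower in 1 of 90, heart muscle genes in 2 of 110, liver genes in 0 of 190 and adipocyte genes in 0 of 90. Several lists read low, with a median list mean over the rats of 5.86 for platelet and 5.61 for T and NK cell genes. It was 5.38 for neutrophil and 5.36 for liver genes. All 4 are under the lowest array median of 5.95, where a decrease may not be visible, so few lower calls there show little. After epirubicin the mean over the B cell list ran from 6.38 to 6.75 in treated hearts and from 6.82 to 7.30 in controls, with no overlap. The platelet list ran from 5.58 to 5.87 against 5.63 to 6.25, with overlap. After cyclophosphamide the B cell list ran from 6.47 to 6.83 against 6.88 to 7.30 and the platelet list from 5.6 to 5.91 against 5.58 to 6.07. T and NK cell genes did not overlap after ifosfamide, at 5.19 to 5.39 against 5.53 to 5.85, nor after cyclophosphamide, at 5.13 to 5.38 against 5.40 to 5.91. The macrophage list stood above its controls after cyclosporin A at 350 mg/kg, at 8.10 to 8.55 against 7.25 to 7.94, with 6 of 10 genes called higher. In the 24 named profiles macrophage genes were higher in 32 of 240 pairs (13.3%) and adipocyte genes in 8 of 216 (3.70%). Neutrophil genes were higher in 7 of 192 (3.65%) and liver genes in 5 of 456 (1.10%), beside 0.601% over all genes. B cell genes were lower in 12 of 144 pairs (8.33%) and endothelial genes in 7 of 216 (3.24%). Neutrophil genes were lower in 5 of 192 (2.60%) and T and NK cell genes in 7 of 336 (2.08%), beside 0.652% over all genes. The part of these cells in the members' levels was not tested.

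For 22 rats there were 2 arrays, from an earlier and a later RNA extraction campaign. Differences between them thus hold extraction and campaign as well as the error of the array. These rats had received paroxetine (6), spironolactone (6), losartan (5) or azaribine (3), and 2 were controls. The SD of the difference between the arrays was 0.60 for Alas2, against an SD of 0.49 between control rats of 1 group. It was 0.62 against 0.55 for Tent5c, 0.40 against 0.25 for Hbb, 0.54 against 0.64 for Slc4a1 and 0.36 against 0.36 for Bpgm, and a difference carries the spread of both arrays. The later array of Alas2 stood at a mean of -0.22 relative to the earlier one, with a range of -2.30 to 0.56.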

How the data were processed

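Poly(A) RNA of rat hearts was labelled and hybridised to Affymetrix RG230 2.0 arrays. The deposited values are log2 signals for 31099 probe sets, which the authors normalised across arrays. The submitters' processing notes name RMA, with a version not stated in the sources used here, and the study's methods name the frozen variant of it. Levels therefore depend on that common normalisation, and a global shift of an array would not be seen. The 57 control probe sets were left out. A platform table gave 20826 probe sets a single symbol, and the probe set of highest mean per symbol gave 14217 genes. No column was left out, and for 22 rats with 2 arrays the array of the earlier campaign was used.

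Campaigns are the 5 runs of RNA extraction dates in the labels. Each profile was fitted over all genes with limma 3.58.1 in R 4.3.3, with duration and campaign as 1 factor, as the methods correct for time. Calls took a Benjamini-Hochberg adjusted p of at most 0.01 and a change of 1.5-fold, the study's thresholds. Control hearts were fitted by duration within strata of vehicle, route and campaign, and by vehicle with duration as a factor. Dose pairs were fitted on treated rats alone. Correlations used 100000 permutations, or every ordering in the campaign of 9 rats, with scipy 1.17.1. Figures were drawn with matplotlib 3.10.9, and the fits were tested on simulated data.

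The members, the gene lists and the cell type markers were chosen with earlier results of these data known. Named profiles are those with 4 or more members called in 1 direction, 10 cytotoxic drugs, azaribine, zidovudine, cobalt chloride and imatinib, which makes 24. Indomethacin, sulindac and the pump drugs were picked after their values were seen. Of the other red cell genes, up to 5 per group with the largest median change over the named profiles were named, with further ones added where a count or a known role called for it, and the 10 genes most like Alas2. Alternatives were another probe set, a filter on low levels, quantile normalisation, the methods' t-test, hybridisation batch or study code as a random block, other controls, arrays left out and each replicate left out.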

Additional observations from a re-analysis of the deposited data

Results flagged for a closer look

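Among the 128 pairs of a member and a control group of 4 to 10 rats, 16 had 1 rat whose gap to the nearest other rat took up an unusual share of the range of the group. Chance gives such a gap in about 1 in 20 groups, and the 16 pairs came from 6 rats. A water control of 1 d in campaign 1 stood high, with Alas2 at 11.54, Hbb at 14.31, Bpgm at 10.95, Car2 at 10.61 and Tent5c at 9.49. A CMC control of 3 d in campaign 3 also stood high, with Alas2 at 10.78, Hba-a3 at 12.85 and Bpgm at 10.22. A water control of 5 d in campaign 3 stood low, with Alas2 at 7.74, Hbb at 11.96 and Car2 at 7.10, and its array is one of the 20 that stand apart from the rest by correlation or by a liver gene list. A corn oil control of 3 d in campaign 1 stood low, with Alas2 at 9.03, Hbb at 13.30 and Car2 at 8.25. In CMC controls of campaign 1, Hbb at 12.78 stood low in 1 rat of 3 d and Bpgm at 8.68 in 1 rat of 5 d. Within each of the 4 rats that stood apart for several members, those members stood apart on the same side.

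The change after the compound differed between durations for 3 members, Alas2, Hbb and Hba-a3, in each of 6 profiles, by the limma test of treatment with duration. These were epirubicin, mitoxantrone, doxorubicin, idarubicin, daunorubicin at 3.25 mg/kg and cyclosporin A at 350 mg/kg. The members were chosen on these contrasts, so the 18 pairs are a description.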

How the results depend on the processing

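The pairs of a member and a profile called lower numbered 141 and stayed between 103 and 165 under the alternatives that kept most profiles, among them another probe set (117), quantile normalisation (148), the methods' t-test (106) and hybridisation batch as a random block (134). With controls of the own study code the lower pairs were 22, against 51 in the same 35 profiles with all matched controls, profiles with 4 or more members lower fell to 2, pairs called higher to 0, pairs that differed between durations to 2 and other red cell genes lower to 7. That alternative has 2 to 9 control rats per profile. The planned removal of arrays that stand apart took out 309 arrays, most of them through a median over 7 on the adipocyte list, and left 79 profiles. It gave 5 members in control hearts by duration, 0 higher pairs, 17 other red cell genes and an Alas2 difference of 0.39 between the valsartan doses, where all arrays gave -0.05. The removal of 20 arrays by correlation or liver genes, chosen after seeing the data, gave 143 lower and 0 higher pairs. Pairs called higher were 0 by the methods' t-test and 6 with controls of every campaign. The upper 60% of genes by mean gave 17 other red cell genes. Of the 5 members that differed between the imatinib doses, 3 did with the second probe set and 2 by the methods' t-test, where the Alas2 difference of -1.19 was not called. Within campaign 2, 4 of the 7 relations with Alas2 had an adjusted p of at most 0.01, without Hbb (r 0.81), Hba-a3 (0.52) and Slc4a1 (0.53), and within campaign 3 Slc4a1 (0.43) missed it. The cause of these differences was not tested.

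Leaving out each replicate in turn gave 94 to 143 lower pairs (94 without replicate 1), 12 to 20 profiles with 4 or more members lower (12 without replicate 1, 2 or 3), 0 to 6 higher pairs (6 without replicate 2 or 3, and 0 without replicate 1, 13, 14, 15, 17 or 20), 15 to 18 pairs that differed between durations and 20 to 29 other red cell genes. Control hearts gave 7 to 8 members by duration, 0 to 1 with a fold of 1.5 (1 without replicate 5, 13 or 15) and 0 to 0 by vehicle, and Alas2 between 5 d and 1 d ran from -0.57 to -0.49. For the dose pairs 0 to 5 members were called (0, 0 and 1 without replicate 1, 2 and 3), and Alas2 ran from -1.22 to -1.15 for imatinib, its call being lost without each of those replicates, from 1.05 to 1.22 for celecoxib and from -0.26 to 0.32 for valsartan, the last without replicate 2. The Alas2 change after cobalt chloride ran from -0.70 to 0.28, the last without replicate 3, against -0.17 with all rats. Study code as a random block could not be fitted for the dose pairs. No paired analysis was possible because replicate numbers only name rats in accession order. A lone rat left in an arm is assumed to vary like the other groups. Few rats per duration limit what a single profile can show, and low levels lie near the background of the array, where a further decrease could not be seen.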

Other observations

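Daunorubicin given at 2 mg/kg by gavage had no matched controls. Its Alas2 levels were 8.91, 9.39 and 9.92 at 1 d, 9.21, 9.53 and 9.68 at 3 d, and 8.82, 9.09 and 9.37 at 5 d. After 3.25 mg/kg into a vein, the hearts of 3 d and 5 d had stood between 5.05 and 5.80. Dose and route differ between these profiles, and no comparison was made. The nucleoside analogue 2'-Beta-Fluoro-2',3'-Deoxyadenosine at 7.5 mg/kg, also without matched controls, had Alas2 at 9.68, 9.93 and 10.40, then 9.09, 9.71 and 9.73, then 8.73, 8.88 and 10.91.

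Outside the common durations, bezafibrate at 617 mg/kg left Alas2 at 7.47, 8.21 and 8.69 at 7 d, and valsartan at 30 mg/kg had 9.56, 9.67 and 10.85 at 0.25 d.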
